A study of Mus musculus with 24 samples.

Results

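The 9 genes described here serve B cells and plasma cells, the antibody-secreting cells that B cells give rise to, some of them in other cells as well: Jchain, Mzb1, Derl3, Xbp1, Pou2af1, Cd79a, Cd79b, Ms4a1 and Fcrla. They were chosen by name from the 22911 gene symbols that the array's probes could be matched to, and their probes were found through the RefSeq accession that the array files give for each probe. RNA of 4 organs, namely kidney, liver, lung and white adipose tissue (here WAT), was measured in male C57BL/6J mice at 10 weeks (10W, young) and 90 weeks (90W, aged) of age, on 24 one-colour arrays with 3 samples per age and tissue. The labels do not say whether samples of the same number in different tissues came from 1 animal. No transgene, drug or diet is named for these mice, and the study used the comparison to ask how gene expression differed between young and aged organs. The aged livers are numbered 1, 2 and 4, and the other groups 1, 2 and 3. Of the members 8 had 1 probe, Xbp1 had 3, and all 9 passed the filter on dim probes in all 4 tissues.

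A mature B cell carries a membrane immunoglobulin that signals through the CD79a and CD79b chains, and it displays CD20, the product of Ms4a1. When a B cell becomes a plasma cell it silences much of the membrane programme, expands its endoplasmic reticulum under the transcription factor XBP1, and secretes antibody. The J chain, encoded by Jchain, joins immunoglobulin units into dimeric IgA and pentameric IgM, and Mzb1 encodes a helper of antibody assembly in the endoplasmic reticulum. Derl3 encodes Derlin-3, which takes part in the removal of misfolded proteins from that compartment, and Pou2af1 encodes the coactivator OCA-B, which binds the octamer factors on immunoglobulin promoters. Fcrla encodes an intracellular relative of the Fc receptors found in B cells.

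Levels are given as log2 signal, meaning log2 of the processed spot signal minus the 75th percentile of the array, so that 0 is a bright spot and the difference between ages is a log2 change. A gene was called when limma's Benjamini-Hochberg adjusted p over all genes of the tissue was under 0.05. On the 24 arrays 58.6% to 71.1% of probes were well above background, and replicate arrays of a group correlated with r between 0.933 and 0.996. The defining markers of hepatocytes, lung epithelium, kidney epithelium and adipocytes were bright in their own tissue. Some of them moved with age. In aged kidney 4 of 6 kidney epithelium genes were called lower and 1 higher, where 42.6% of all genes were called lower. Their median log2 change was -1.09, with a summed signal of 781 to 915 times the 75th percentile in young and 300 to 517 in aged kidneys. In aged lung 3 of 6 adipocyte genes were called lower, against 2.89% of all genes (median -2.49, summed signal 22.7 to 34.8 against 6.46 to 11.1). The part of these marker changes in the results for the 9 members was not tested. Some libraries stood apart. In 90W replicate 2 of the liver and of the lung, neutrophil genes were far above the other aged mice while all 9 members were the lowest of the aged mice. In WAT, 10W replicate 1 had the lowest mean correlation with its group (0.939), and in lung 90W replicate 1 hepatocyte genes had a summed signal of 240 times the 75th percentile, against 2.99 to 19.6 in the other lungs. Each tissue was hybridised on a slide of its own that held both ages, so tissue and slide cannot be told apart in comparisons between tissues, whereas the 2 ages were compared within a slide.

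Most of the 9 genes were called higher in aged kidney and WAT, fewer than that in aged liver, and none in aged lung, while Xbp1 was called in no tissue. In the kidney 8 of 9 members were called higher at 90W, where 20.6% of all genes were called higher, and in WAT 7 of 9 were called, where the figure for all genes was 2.01%. In the liver 4 of 9 were called higher against 10.5% of all genes, and in the lung 0 of 9 against 2.72%, with 1 of the 9 at an unadjusted p under 0.05. No member was called lower in any tissue, against 17.0% of all genes in liver, 2.89% in lung, 42.6% in kidney and 0.579% in WAT. Every aged mouse exceeded every young mouse for 4 members in liver, 1 in lung, 8 in kidney and 7 in WAT, and over all genes this held for 16.8%, 11.6%, 23.1% and 13.7%. The median change over the 9 genes was 2.85 in kidney, 3.48 in WAT, 1.58 in liver and 0.21 in lung, on a log2 scale on which the median over all genes tested was -0.23, -0.06, -0.20 and -0.08. Because these are bulk tissues, more cells of a type and more RNA per cell cannot be told apart.

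The lung count depended on a single mouse. Without 90W replicate 2, 5 of the 9 members were called higher in the lung (Jchain, Mzb1, Pou2af1, Derl3 and Fcrla), and without the same number in the liver the count there rose from 4 to 6 with the addition of Ms4a1 and Fcrla. The kidney kept 8 calls whichever mouse was left out. In WAT the count was 7 without 10W replicate 1, 5 without 10W replicate 3, 3 without 90W replicate 2 or 3, and 2 without 10W replicate 2 or 90W replicate 1. In the liver it was 1 without any of the 3 young mice and 2 without 90W replicate 1 or 4. The higher calls over all genes moved as well when 1 mouse was left out. They ran from 1498 to 2705 in liver, 1 to 1086 in lung, 5543 to 6302 in kidney and 211 to 478 in WAT. The methods' t-test, adjusted in the same way, called 1 member in liver and 0 in WAT, where it called only 1 of all genes higher.

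**Figure D1:**
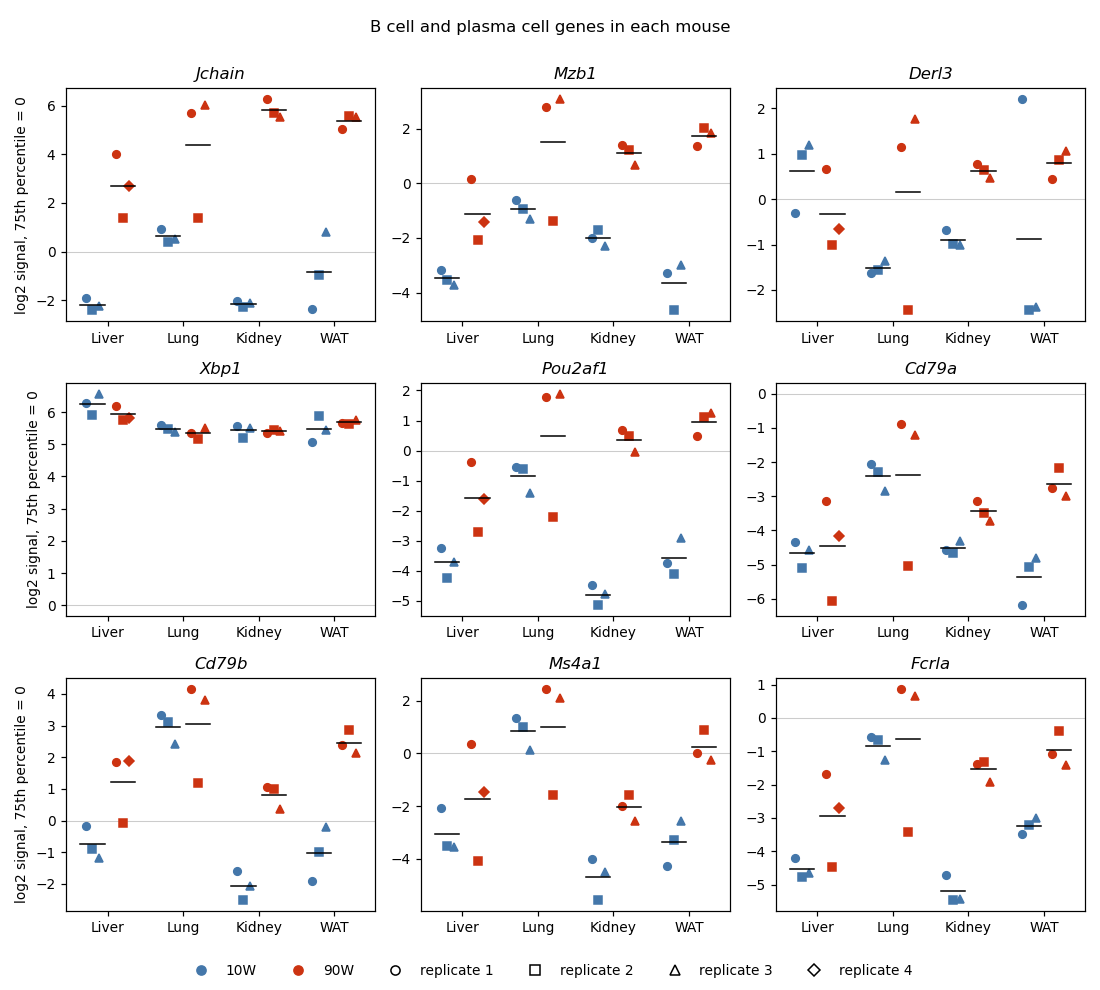
Log2 signal of each of the 9 genes (75th percentile of the array at 0, each panel with its own axis) in every mouse of the 4 tissues, with blue for 10W, red for 90W, marker shape for the replicate number and a black line at the mean of 3 mice. In kidney and WAT the aged mice sit above the young mice for most genes, and in lung and liver the aged square (replicate 2) falls below the other aged mice for every gene plotted.

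Among the genes of antibody secretion, Jchain showed the highest change in all 4 tissues. In the kidney its log2 signal was -2.03, -2.27 and -2.09 in the 3 young mice and 6.27, 5.69 and 5.51 in the 3 aged mice. The groups lay far apart, and the level rose by 7.95 ± 0.20 (SE, n = 3 per age, adjusted p = 1.32e-05), a 248-fold difference. In WAT it was -2.36, -0.97 and 0.80 at 10W and 5.02, 5.59 and 5.54 at 90W, a rise of 6.23 ± 0.77 (adjusted p = 0.0189). The young fat depots varied among themselves by over 3 log2 units while the aged ones were close together. In the liver the values were -1.92, -2.41 and -2.23 against 4.01, 1.37 and 2.70, a 29.5-fold rise (log2 change 4.88 ± 0.60, adjusted p = 0.00388), with replicate 2 the lowest of the aged livers. In the lung the young mice were already brighter on this probe, at 0.95, 0.41 and 0.52, and the aged mice were at 5.68, 1.39 and 6.04. The groups did not overlap, as for 11.6% of all lung genes in that direction, yet the change of 3.74 ± 1.23 missed the threshold (adjusted p = 0.126). Without 90W replicate 2 the lung change was 5.23 ± 0.21 (adjusted p = 0.00232).

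Mzb1 followed Jchain with smaller changes. In WAT it was -3.29, -4.65 and -2.98 at 10W and 1.35, 2.01 and 1.85 at 90W, a 41.6-fold rise (log2 change 5.38 ± 0.47, adjusted p = 0.00669). In the kidney it went from -2.01, -1.71 and -2.31 to 1.42, 1.23 and 0.68 (change 3.12 ± 0.24, adjusted p = 0.000211). Neither tissue had an aged mouse within the range of the young mice. In the liver the young mice were at -3.16, -3.55 and -3.73 and the aged at 0.15, -2.07 and -1.43 (change 2.36 ± 0.53, adjusted p = 0.0217). In the lung, 90W replicates 1 and 3 stood at 2.79 and 3.09 while replicate 2, at -1.39, was below all 3 young mice (-0.61, -0.93 and -1.32), and the change of 2.45 ± 1.19 was not called (adjusted p = 0.247).

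Derl3 and Xbp1, which serve the endoplasmic reticulum of many secretory cells, had smaller mean changes than Jchain and Mzb1 in every tissue. Derl3 rose in the kidney, from -0.68, -0.99 and -1.02 to 0.77, 0.64 and 0.47 (change 1.52 ± 0.13, adjusted p = 0.000308). In WAT the 3 aged mice were at 0.44, 0.87 and 1.06 and young replicates 2 and 3 at -2.45 and -2.37, but young replicate 1 was at 2.21, above every aged mouse. The WAT change of 1.66 ± 1.26 was not called (adjusted p = 0.512), and without that young mouse it was 3.20 ± 0.24 (adjusted p = 0.0139). In the liver Derl3 had a change of -0.96 ± 0.54 (adjusted p = 0.208), the only member apart from Xbp1 with a negative change there. Xbp1 was among the bright genes everywhere, between 5.06 and 6.57 over the 24 arrays, and its changes of -0.32 in liver, -0.15 in lung, -0.03 in kidney and 0.21 in WAT were not called (adjusted p between 0.301 and 0.837). Its other 2 probes had the same sign as the brightest probe in each tissue. With quantile normalization the kidney change of Xbp1 was 0.46 (adjusted p = 0.0213), so its sign and call there depend on the scaling.

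Pou2af1 separated the ages in 3 tissues. In the kidney it was -4.48, -5.14 and -4.78 in young mice and 0.67, 0.48 and -0.05 in aged mice, a 35.9-fold rise (log2 change 5.17 ± 0.24, adjusted p = 4.9e-05). In WAT it went from -3.73, -4.10 and -2.92 to 0.48, 1.12 and 1.24 (change 4.53 ± 0.37, adjusted p = 0.00556). All 3 aged mice were above all young mice in both tissues, and 2 of the 3 young kidneys had the probe well above background. In the liver the values were -3.24, -4.22 and -3.70 against -0.39, -2.71 and -1.62 (change 2.15 ± 0.57, adjusted p = 0.0334). In the lung they were -0.55, -0.61 and -1.40 against 1.78, -2.20 and 1.89 (change 1.34 ± 1.12, adjusted p = 0.474), and the aged mouse below the young range was again replicate 2.

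The promoters of 3 of these genes are shown because Jchain and Pou2af1 rose together in kidney, WAT and liver, whereas Derl3 was called in the kidney alone. RefSeq (GRCm38.p6) gave a promoter for 6 of the 9 members: Jchain, Cd79a, Pou2af1, Derl3, Xbp1 and Fcrla. The 250 bases before the annotated start are printed 5′ to 3′ on the strand of the gene, at chr5:88527898-88528147 (minus strand) for Jchain, chr9:51213440-51213689 (plus strand) for Pou2af1 and chr10:75893148-75893397 (plus strand) for Derl3. Capitals mark the element TGACGTGG in Pou2af1 and the endoplasmic reticulum stress element in Derl3, both of a kind that XBP1 is known to bind.
Jchain: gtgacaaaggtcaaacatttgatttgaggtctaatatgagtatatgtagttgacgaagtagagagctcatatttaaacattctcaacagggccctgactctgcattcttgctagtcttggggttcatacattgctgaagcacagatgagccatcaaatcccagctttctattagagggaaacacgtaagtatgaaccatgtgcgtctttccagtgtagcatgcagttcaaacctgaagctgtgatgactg
Pou2af1: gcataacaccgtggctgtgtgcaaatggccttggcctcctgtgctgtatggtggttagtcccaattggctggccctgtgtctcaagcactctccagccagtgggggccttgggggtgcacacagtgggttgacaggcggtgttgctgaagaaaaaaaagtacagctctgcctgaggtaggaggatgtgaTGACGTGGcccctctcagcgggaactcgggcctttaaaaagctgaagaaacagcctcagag
Derl3: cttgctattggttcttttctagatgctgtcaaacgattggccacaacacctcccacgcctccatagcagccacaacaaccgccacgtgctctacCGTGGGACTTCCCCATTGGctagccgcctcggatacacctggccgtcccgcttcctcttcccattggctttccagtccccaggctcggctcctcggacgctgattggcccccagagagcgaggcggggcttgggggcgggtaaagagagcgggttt
The motifs below were searched on both strands of the 250 bases before the start. The stress element, CCAAT and CCACG with 9 bases of any kind between them, was found in Derl3 in the opposite orientation, at bases -156 to -138, and in 0.113% of 32851 promoters of that length. TGACGTGG was found in Pou2af1, at bases -61 to -54, and in 0.563% of all promoters. The E-box CAGGTG, a site of the E2A factors, was in Cd79a, Derl3, Xbp1 and Fcrla and in 17.2% of all promoters. The octamer ATTTGCAT was in none of the 6, and in 1.60% of all. A match of letters is a description of the sequence only, and binding was not measured in these tissues.

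The membrane genes of B cells rose in kidney and WAT. Cd79b was at -1.58, -2.51 and -2.07 in young kidneys and 1.05, 1.00 and 0.35 in aged kidneys, a 7.20-fold rise (log2 change 2.85 ± 0.29, adjusted p = 0.000514). In WAT it rose from -1.90, -0.98 and -0.19 to 2.39, 2.85 and 2.13 (change 3.48 ± 0.46, adjusted p = 0.0229). The liver showed a smaller rise, from -0.17, -0.89 and -1.17 to 1.85, -0.07 and 1.88 (change 1.96 ± 0.56, adjusted p = 0.0402), in which aged replicate 2 only just exceeded the highest young mouse. That liver call sat close to the threshold, since without a filter on dim probes its adjusted p was 0.0511. In the lung, where this probe was brightest at 10W (3.33, 3.12 and 2.42), the aged mice were at 4.17, 1.20 and 3.81 and the change was 0.10 ± 0.80 (adjusted p = 0.946).

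Ms4a1 had its largest mean changes in WAT and kidney too, and these did not differ beyond their error (kidney minus WAT -0.96, 95% interval -3.84 to 1.92, adjusted p = 0.644). It rose 12.2-fold in WAT, from -4.28, -3.30 and -2.55 to 0.03, 0.89 and -0.23 (log2 change 3.61 ± 0.51, adjusted p = 0.0273), and 6.26-fold in the kidney, from -4.01, -5.57 and -4.49 to -2.0, -1.56 and -2.57 (change 2.65 ± 0.45, adjusted p = 0.00293). In the liver aged replicate 1 was at 0.36 and replicate 4 at -1.48, but replicate 2, at -4.10, was below all young livers (-2.09, -3.53 and -3.56), and the change of 1.32 ± 1.05 was not called (adjusted p = 0.365). Without replicate 2 it was 2.50 ± 0.66 (adjusted p = 0.0475). In the lung the young mice were at 1.36, 1.02 and 0.13 and the aged at 2.47, -1.58 and 2.11 (change 0.16 ± 1.1, adjusted p = 0.939).

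Cd79a had the smallest changes of the membrane group. It rose 6.52-fold in WAT (log2 change 2.70 ± 0.42, adjusted p = 0.0355) and 2.10-fold in the kidney (change 1.07 ± 0.18, adjusted p = 0.00263), with no overlap between ages in either tissue. In the kidney the values were -4.58, -4.66 and -4.30 at 10W and -3.14, -3.48 and -3.72 at 90W, all of them dim. The WAT values were -6.19, -5.08 and -4.81 at 10W and -2.77, -2.18 and -3.0 at 90W. Of the young WAT arrays 2 of 3 had the probe well above background. The WAT call did not hold with quantile normalization (adjusted p = 0.0603) or without a filter (adjusted p = 0.0572). In the lung aged replicates 1 and 3, at -0.88 and -1.20, were above the young mice (-2.05, -2.28 and -2.86) and replicate 2, at -5.03, far below them (change 0.03 ± 1.11, adjusted p = 0.99). In the liver 1 of 3 young and 2 of 3 aged arrays had the probe well above background, and the change of 0.21 ± 0.68 was not called (adjusted p = 0.832).

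Fcrla rose 12.7-fold in the kidney, from -4.70, -5.46 and -5.44 to -1.37, -1.32 and -1.92 (log2 change 3.66 ± 0.26, adjusted p = 0.000178), with 1 of the 3 young kidneys well above background. In WAT it rose 4.83-fold, from -3.49, -3.22 and -3.01 to -1.09, -0.40 and -1.41 (change 2.27 ± 0.30, adjusted p = 0.0236). In the liver its change of 1.58 ± 0.64 had an adjusted p of 0.102 with all mice and 0.01 without 90W replicate 2, and 1 of 3 young livers had the probe well above background. In the lung the aged mice were at 0.88, -3.41 and 0.67 around young values of -0.58, -0.66 and -1.25 (change 0.21 ± 1.16, adjusted p = 0.923).

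**Figure D2:**
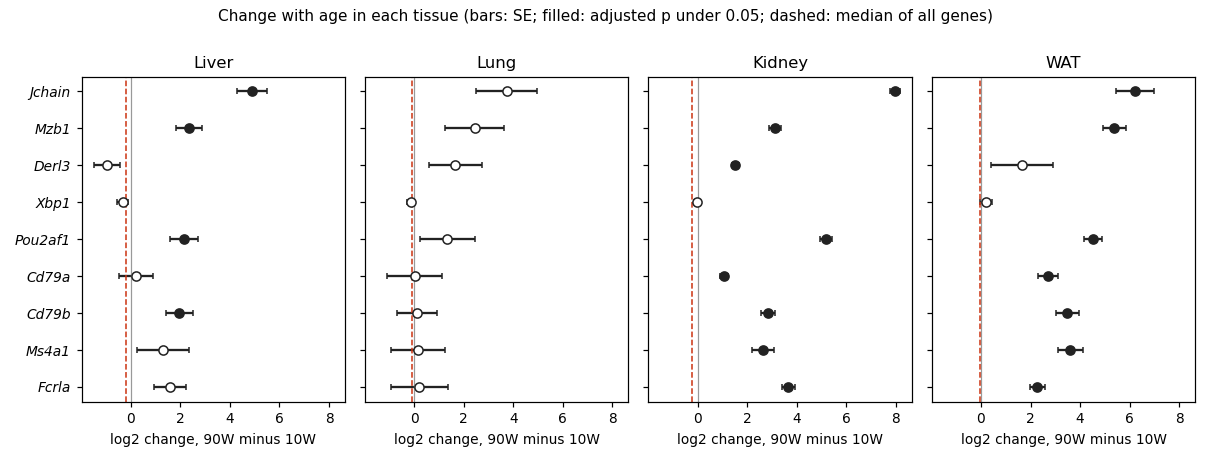
Log2 change from 10W to 90W of the 9 genes in each tissue, with bars for the standard error from limma, filled circles for adjusted p under 0.05, a solid line at 0 and a dashed line at the median of all genes tested. Jchain is farthest to the right in every tissue, from 3.74 in lung to 7.95 in kidney, and Xbp1 stays near 0 throughout.

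The mean change of Jchain was larger than that of the B cell membrane genes in every tissue. To compare the genes within a mouse, the log2 signal of Ms4a1 was subtracted from that of Jchain in each animal, which leaves out any scaling shared by both probes. In the kidney this difference was 1.98, 3.30 and 2.41 in young mice and 8.27, 7.25 and 8.08 in aged mice, a shift of 5.31, with Ms4a1 well above background on 2 of the 3 young arrays. In the lung it was -0.41, -0.61 and 0.38 against 3.21, 2.96 and 3.93, a shift of 3.58, and aged replicate 2 was here close to the other aged lungs. In the liver it was 0.17, 1.11 and 1.33 against 3.66, 5.47 and 4.19, a shift of 3.57. In WAT it was 1.92, 2.32 and 3.35 against 4.98, 4.70 and 5.77, a shift of 2.62. The ages did not overlap in any tissue, and with Cd79b in place of Ms4a1 the shifts were 2.92 in liver, 3.64 in lung, 5.10 in kidney and 2.75 in WAT, again without overlap. Each of these 8 comparisons had a two-sided exact permutation p of 0.1, also 0.1 after Benjamini-Hochberg adjustment over the 8, which is the smallest p that 3 mice against 3 allow. The 2 B cell references share Jchain and are not independent of each other.

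**Figure D3:**
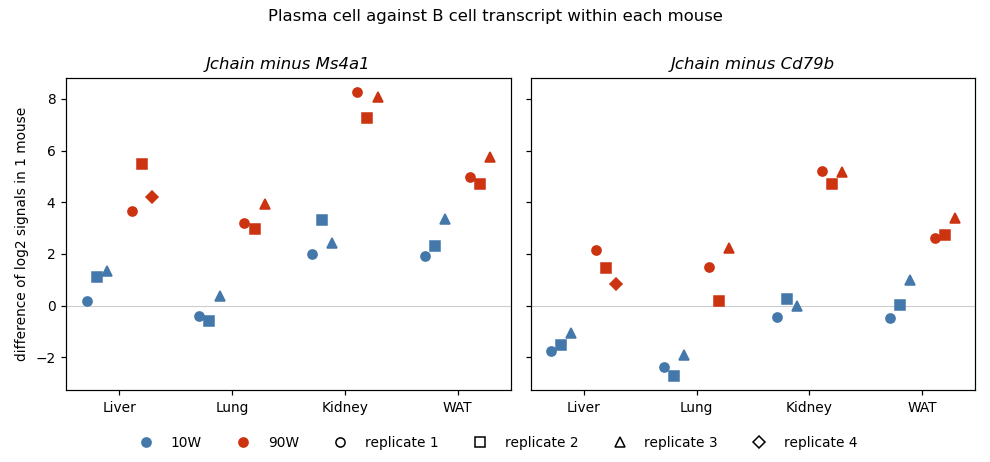
Difference of log2 signals within each mouse, Jchain minus Ms4a1 on the left and Jchain minus Cd79b on the right, by tissue, with blue for 10W, red for 90W and marker shape for the replicate number. In every tissue all 3 aged mice lie above all 3 young mice, including replicate 2 of liver and lung, and the shift is 5.31 (Ms4a1) and 5.10 (Cd79b) in the kidney.

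The age changes of Cd79b and Pou2af1 differed between tissues, by an F test in a fit of all 24 arrays (adjusted p = 0.0274 and 0.0204). These were 2 of 9 members, against 37.5% of all 25784 genes in that fit, and the other 7 members had adjusted p of 0.0583 (Jchain) or more. In pairs of tissues, the kidney rise exceeded the lung change for 4 members, where 23.3% of all genes differed: by 4.21 for Jchain (95% interval of lung minus kidney -6.90 to -1.53, adjusted p = 0.0235), by 3.83 for Pou2af1, by 3.45 for Fcrla and by 2.74 for Cd79b (adjusted p = 0.0157, 0.0319 and 0.0343). Of these, Jchain and Fcrla were not called by the F test (adjusted p = 0.0583 and 0.0916). The lung changes here include 90W replicate 2. Without it they were larger, at 5.23 for Jchain, 2.69 for Pou2af1, 1.60 for Fcrla and 1.03 for Cd79b, and pair calls are not given for that setting. Cd79b also differed between lung and WAT, by 3.38 (interval of lung minus WAT -5.27 to -1.49, adjusted p = 0.0463), where 3.23% of all genes differed. The other 4 tissue pairs had no member called, against 16.8% of all genes for liver minus lung, 9.39% for liver minus kidney, 18.9% for liver minus WAT and 25.1% for kidney minus WAT. Intervals were wide: for kidney minus WAT the Jchain difference was 1.73 with an interval of -0.96 to 4.41 (adjusted p = 0.34). Both calls were lost without 10W replicate 1 (adjusted p = 0.111 for Cd79b and 0.093 for Pou2af1) and without 10W replicate 2 (0.139 and 0.116), Pou2af1 was lost without 10W replicate 3 (0.0643), and Cd79b was lost without 90W replicate 2 (0.0519) and with spike-in scaling (0.0516). In these settings the number was left out in all tissues. Without 90W replicate 2 of liver and lung alone, 6 members differed between tissues (Jchain, Mzb1, Cd79a, Cd79b, Pou2af1 and Fcrla), and without 10W replicate 1 of WAT 4 did (Jchain, Cd79b, Pou2af1 and Derl3). The share of all genes called in these settings is not given here, so these counts have no background to be read against.

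Genes of other blood cells moved in the same libraries. The mean log2 signal of the neutrophil list in the aged livers was 0.86, 7.06 and 0.61 for replicates 1, 2 and 4, against -2.32 to -1.16 in young livers, and in the aged lungs it was 2.70, 6.63 and 2.76 for replicates 1, 2 and 3, against 0.15 to 1.09 in young lungs. The replicates with 7.06 and 6.63 are those with the lowest Ms4a1 and Cd79a of all 6 mice of their tissue. After the group means were removed, these 2 libraries correlated with r = 0.318 over genes, the highest of the 33 pairs that share an age and a number across tissues. In WAT, 90W replicate 3 also had a high neutrophil mean (6.30, against -1.16 and 0.26 in the other aged mice), and it was the lowest of the 3 for Ms4a1 (-0.23 against 0.03 and 0.89), Cd79a, Cd79b and Fcrla, though not for Jchain, Mzb1, Pou2af1, Derl3 or Xbp1. The kidney showed no such mouse, with neutrophil means of -1.38 to -0.63 in aged mice and its 9 members at similar levels in all 3. T cell genes did not fall in aged lung replicate 2, where the mean of the list was 1.35 against 0.74 and 0.97 in the other aged lungs. Whether the neutrophil genes and the low B cell genes of these libraries have a common source was not tested. The young WAT library with high Derl3 was low in dendritic cell genes (summed signal 12.2 times the 75th percentile, against 126 and 152 in the other young mice) and higher in kidney epithelium genes (4.67 against 1.16 and 1.05). Their part in its Derl3 level was not tested.

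**Figure D4:**
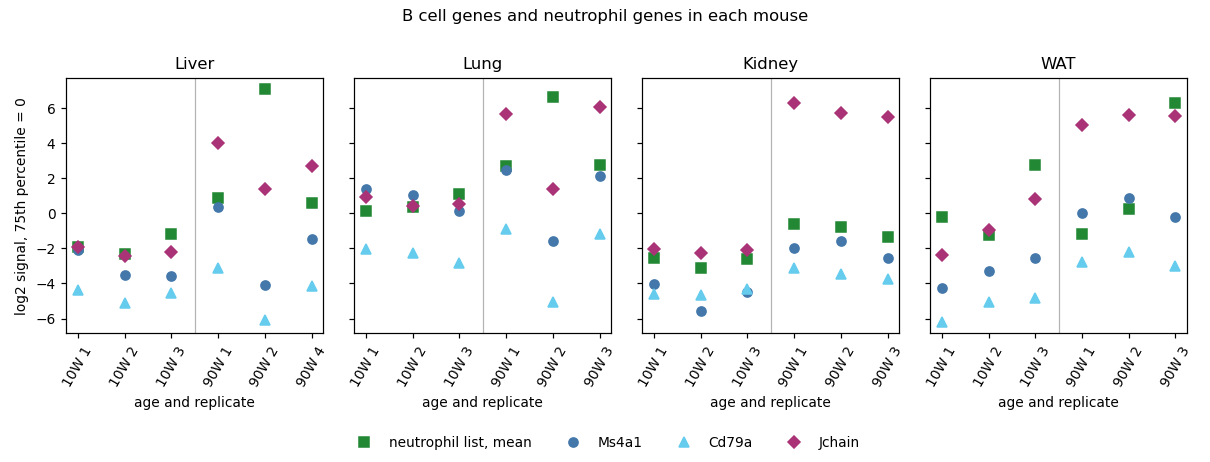
Log2 signal (75th percentile of the array at 0) of Ms4a1, Cd79a and Jchain and the mean of the neutrophil genes in every mouse, young mice left and aged mice right of the grey line in each tissue. In liver and lung the neutrophil mean peaks in 90W replicate 2 (7.06 and 6.63), where Ms4a1 and Cd79a are lowest.

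Genes of B cell receptor signalling were called higher in all 4 tissues, most often in the kidney. Of 20 genes of B cell receptor signalling and coreceptors, 16 of 19 tested were called higher and 1 lower in the kidney, 13 of 19 higher in the liver, 8 of 20 higher in WAT and 5 of 20 higher in the lung. The shares of all genes called higher were 20.6% in kidney, 10.5% in liver, 2.01% in WAT and 2.72% in lung, and these stand as the background of every list that follows, with 42.6%, 17.0%, 0.579% and 2.89% called lower. Of the higher calls, 3 in kidney and 1 in liver were of genes with no young array well above background, which passed the filter through the aged arrays alone. In aged kidney Syk and Btk, kinases downstream of the receptor, rose 12.8-fold and 11.8-fold (adjusted p = 8.53e-05 and 7.38e-05). Other leukocytes express both of these genes too, and 8 of 9 macrophage genes were called higher in the kidney. Fcrl1, an Fc receptor-like protein of B cells, was not well above background in young kidneys and was at least 3.82-fold higher in aged kidneys, a description since the probe passed the filter through the aged arrays alone, and it rose 16.8-fold in WAT (adjusted p = 0.0234). Cd72, a B cell coreceptor, rose 15.1-fold in WAT and 6.26-fold in liver (adjusted p = 0.00795 and 0.00594). In the lung the called genes named by rule were Prkcb, Cd37, Syk and Vav1, with log2 changes of 1.24 to 1.58 and adjusted p of 0.0126 to 0.0213, all of them genes that other leukocytes express too. The lung count was 10 without 90W replicate 2 and 0 without 10W replicate 1 or 2, and the WAT count was 2 without 90W replicate 2 or 3.

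Among 10 transcription factors of B cells, the kidney had 6 higher calls and 2 lower calls of 10 tested, WAT 3 higher of 10, the liver 3 higher and 1 lower of 9, and the lung 1 higher of 10. The WAT count was 0 without 10W replicate 2 or 90W replicate 1, and the lung count 0 without any of the 3 young samples and 2 without 90W replicate 2. Spib, an Ets factor of B cells and plasmacytoid dendritic cells, rose 9.78-fold in kidney (adjusted p = 0.000354) and 8.86-fold in WAT (adjusted p = 0.0125). Pou2f2, which encodes the octamer factor Oct-2 that OCA-B binds, rose 5.99-fold in kidney, 3.81-fold in WAT and 2.90-fold in liver (adjusted p = 0.00049, 0.0258 and 0.00301). Pax5, also in the list, did not rise in the liver. It was at -2.46, -2.25 and -2.62 in young livers and lower, at -2.73, -2.66 and -3.16, in aged livers, and was not called. Ikzf3, which encodes the lymphoid factor Aiolos, had calls of opposite sign in liver and lung, a difference that was not tested, with a log2 change of -1.25 ± 0.21 in the liver (adjusted p = 0.00884) and 2.28 ± 0.27 in the lung (adjusted p = 0.0158).

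Of the plasma cell identity genes 12 of 16 were called higher and 2 lower in the kidney, 5 of 15 higher in liver, 2 of 16 in WAT and 1 of 16 in lung, against 20.6%, 10.5%, 2.01% and 2.72% of all genes called higher. Irf4, a regulator of plasma cell differentiation, rose 19.5-fold in the kidney, from -4.63, -5.70 and -5.05 to -0.54, -0.75 and -1.23 (adjusted p = 0.000181). Tnfrsf17, which encodes the survival receptor BCMA, was not well above background in young kidneys and was at least 4.19-fold higher in aged kidneys, where it was the 1 higher call of the list that passed the filter through the aged arrays alone, and it rose 3.65-fold in WAT (adjusted p = 0.0424). Sdc1, which encodes the plasma cell marker CD138 and is also expressed in epithelia, rose 3.70-fold in the kidney (adjusted p = 0.000102). Prdm1, which encodes BLIMP-1, rose 2.96-fold in the liver (adjusted p = 0.00599), and Slamf7 rose in kidney, WAT and liver (9.27-fold, 9.58-fold and 3.56-fold, adjusted p = 2.85e-05, 0.026 and 0.00967). Irf4 and Sdc1 did not separate the ages in the liver. There Irf4 was at -3.89, -4.01 and -3.80 in young and -3.48, -4.11 and -4.12 in aged mice. Liver Sdc1 was at 3.35, 3.43 and 3.21 against 3.06, 3.50 and 3.16. The median over the list was 0.79 in kidney, 0.67 in WAT, 0.35 in lung and 0.10 in liver, beside -0.23, -0.06, -0.08 and -0.20 for all genes. The WAT count was 1 without 10W replicate 1 and 0 without any other mouse, and the lung count was 4 without 90W replicate 2 and 0 without 10W replicate 1 or 2.

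The secretory pathway that XBP1 drives did not follow Jchain. Of 28 genes tested, 1 was called higher and 20 lower in the kidney, where 42.6% of all genes were called lower, 4 were lower in the liver, where the figure was 17.0%, and none was called in lung or WAT in either direction. In the kidney Derl1 and Derl2, relatives of Derl3, changed by -0.95 and -0.75 (adjusted p = 0.000817 and 0.000734), and Herpud1 by -0.83 (adjusted p = 0.0152). In the liver Syvn1, a ubiquitin ligase of the endoplasmic reticulum, changed by -0.96 (adjusted p = 0.0229). The lower calls depended on the scaling: with the spike-in spots as reference the kidney list had 1 gene higher and 2 lower and a median of 0.02 in place of -0.35, and the liver list had none called. Quantile normalization gave 4 higher and 6 lower in the kidney and none in the liver.

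Factors that attract and sustain B cells were called higher for 14 of 16 genes in the kidney, 6 of 14 in the liver (with 1 lower), 3 of 16 in WAT and 1 of 16 in the lung. Tnfsf13b, which encodes the survival factor BAFF, rose 17.7-fold in the kidney, from -3.73, -3.81 and -3.53 to 0.90, 0.52 and -0.05 (adjusted p = 8.95e-05), and 7.41-fold in the liver (adjusted p = 0.00424), where 1 of 3 young arrays was well above background. Tnfrsf13c, which encodes its receptor on B cells, rose 11.2-fold in WAT (adjusted p = 0.0238) and by at least 7.55-fold in aged kidney, where no young array was well above background, as for 5 of the 14 kidney calls of this list. Cxcl13, the chemokine of B cell follicles, was at -3.59, -1.71 and -1.12 in young WAT and 3.18, 1.91 and 4.47 in aged WAT (40.1-fold, adjusted p = 0.0397), and at -0.63, -0.72 and -0.07 in young livers against 7.29, 2.28 and 3.0 in aged livers (25.3-fold, adjusted p = 0.0309). The aged liver with the most Cxcl13, replicate 1, was also the one with the most Jchain, Mzb1 and Ms4a1, though not Cd79b (1.85 against 1.88 in replicate 4). In aged WAT the order differed, since replicate 2, the lowest for Cxcl13, was the highest for Jchain (5.59), Mzb1 (2.01) and Ms4a1 (0.89). A link between Cxcl13 and these genes was not tested. Ltb, which encodes lymphotoxin beta, rose 7.09-fold in WAT (adjusted p = 0.0118). The liver count fell to 2 without 10W replicate 1, and the WAT count to 0 without 90W replicate 3.

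Age-associated B cells are a subset known to express Tbx21 and Itgax, and genes of that state moved in part. Tbx21 rose 4.27-fold in kidney (adjusted p = 0.000768) and 3.35-fold in WAT (adjusted p = 0.0233), and Itgax rose 16.5-fold in kidney and 7.83-fold in liver (adjusted p = 4.09e-05 and 0.00297). Of the 8 genes, the kidney had 3 calls in each direction, WAT 1 in each direction, the liver 2 higher calls and 1 lower call, and the lung 0, beside 20.6% of all genes called higher and 42.6% called lower in the kidney. The higher call in WAT held without 10W replicate 1 or 3 and was lost without any other sample, and the lower call there was lost whichever sample was left out. Fcrl5, another gene used for this subset, was lower in the kidney (log2 change -0.68 ± 0.08, adjusted p = 0.000704). Itgax and Tbx21 are shared with myeloid cells and with T and NK cells.

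Plasma cells that make IgA use the integrin chains encoded by Itga4 and Itgb7 to enter mucosal tissue. Of the IgA and mucosal list 3 genes were called higher and 1 lower of 7 in the kidney, 2 higher and 1 lower of 5 in the liver, 2 higher and 1 lower of 7 in the lung and 0 of 7 in WAT, with medians of 1.04, 0.14, 0.11 and 0.14. Itga4 and Itgb7 were called higher in kidney (8.20-fold and 6.59-fold), liver (4.48-fold and 3.47-fold) and lung (2.73-fold and 1.83-fold). Both are shared with T cells and other leukocytes, and T cell genes were called higher in the same tissues (10, 8 and 9 of 12). The lower calls were Ccl25, a chemokine, in the kidney (log2 change -1.16), its receptor gene Ccr9 in the liver (-0.97) and Ccl28 in the lung. Ccl28, a chemokine that draws IgA plasma cells, rose 3.27-fold in the kidney (adjusted p = 0.00895) and fell by 1.65 on the log2 scale in the lung (adjusted p = 0.0255), where 1 of 3 aged arrays was well above background. The lung calls of this list were lost without any of the 3 young mice.

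Lists of other leukocytes were called to different extents in the 4 tissues. T cell genes were called higher for 10 of 12 in kidney (2 lower), 8 of 12 in liver (1 lower), 9 of 12 in lung and 7 of 12 in WAT, with Cd3g up 15.7-fold in kidney, 11.3-fold in WAT, 4.14-fold in lung and 3.55-fold in liver. Their lung count was 0 without 10W replicate 1 or 2 and 9 without 90W replicate 2, and their WAT count fell from 7 to 3 without 10W replicate 2 and to 4 without 10W replicate 3 or 90W replicate 2 or 3. Macrophage genes were called higher for 8 of 9 in kidney, 9 of 10 in liver, 2 of 9 in WAT and 0 of 10 in lung, and neutrophil genes for 5 of 8 in kidney (1 lower), 2 of 9 in liver, 1 of 9 in lung and 0 of 8 in WAT. The macrophage count in WAT was 1 without 10W replicate 1 and 0 without any other sample. The neutrophil count in liver was 7 without 90W replicate 2 or with spike-in scaling and 0 without 10W replicate 1 or 2, and in lung it was 3 without 90W replicate 2. NK cell genes were called for 2 of 5 in kidney (1 lower), 1 of 5 in liver, 1 of 6 in lung and 0 of 6 in WAT, and genes of dendritic cells for 6 of 8 in kidney, 3 of 8 in liver (2 lower) and 0 of 8 in lung and WAT. For lymph node endothelium and stroma the counts were 3 of 7 higher and 3 lower in kidney, 2 higher and 1 lower in liver, and 0 of 7 in lung and WAT. The 3 lower calls in the kidney stand beside 42.6% of all genes called lower there. In WAT, where lymph nodes can lie in the fat, 4 of these 7 genes had aged values above all young values, against 13.7% of all WAT genes, and the median change was 0.68. Their part in the WAT result was not tested. Red blood cell genes were higher for 1 of 4 in the lung and lower for 1 of 4 in the kidney. In the pancreatic acinar list, included because adipose samples can carry other tissue, no gene was called in WAT or lung.

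**Figure D5:**
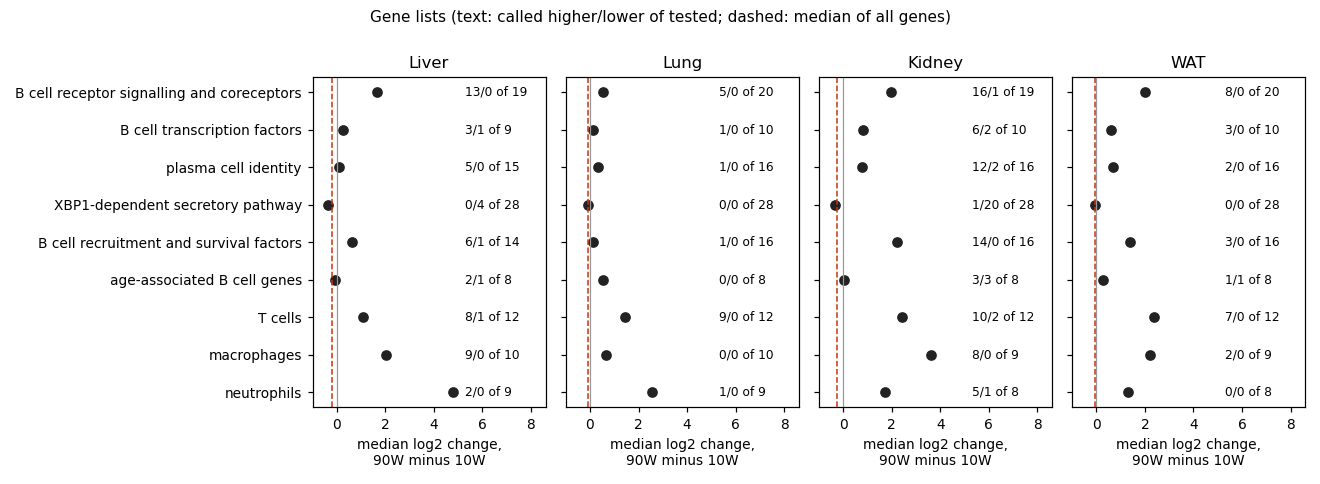
Median log2 change from 10W to 90W of 9 gene lists in each tissue (points), with the number of genes called higher and lower of those tested written beside each point and a dashed line at the median of all genes. B cell receptor genes, T cell genes and macrophage genes lie to the right in kidney, liver and WAT, and T cell genes also in lung (1.44). Neutrophil genes lie farthest to the right in liver (4.80) and lung (2.56). The secretory pathway has medians between -0.35 and -0.05.

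Over the 24 arrays, with the mean of each tissue removed, the 9 members differed in how closely they followed each other. Jchain, Mzb1, Cd79b, Ms4a1, Pou2af1 and Fcrla correlated with each other at r between 0.828 and 0.966, and Cd79a with these at 0.695 (Jchain) to 0.931 (Ms4a1). Derl3 correlated with the rest at -0.006 to 0.616, and Xbp1 at -0.006 to 0.476. Among 15507 genes, those most like Cd79a were Ms4a1 (r = 0.931), Spib (0.917), Fcer2a, which encodes the low-affinity IgE receptor CD23 of B cells (0.905), H2-Ob, a class II chaperone chain of B cells (0.895), and Ccr7, a lymph node homing receptor (0.886). Those most like Jchain were Ltb (0.968), Pou2af1 (0.966), Slamf7 (0.962), Cacna1s, which encodes a calcium channel subunit of muscle (0.961), and Ms4a7, a relative of Ms4a1 expressed in macrophages (0.956). These are descriptions over arrays that share the age contrast and the libraries that stood apart.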

How the data were processed

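RNA of 24 tissue samples was labelled with 1 dye and hybridised to Agilent mouse arrays with 62976 spots. The authors deposited the scanner output of each array, made per the file headers with Feature Extraction 11.0.1.1, whose processed signal is a background-corrected intensity on a linear scale. The methods name a human array kit, but the deposited files carry a mouse design (grid build mm9). From these intensities log2 was taken and the 75th percentile of each array subtracted. Control spots and 1841 flagged spots were left out, and no spot was saturated. Of 56605 probes, 58.3% matched 22911 RefSeq symbols by accession with the version removed. A probe was kept in a tissue when 3 or more of its 6 arrays were well above background, and the brightest probe stood for its gene. Ages were compared within each tissue with limma 3.58.1 in R 4.3.3 (lmFit and eBayes), over 27905 to 31505 genes, and differences between tissues in 1 fit of all arrays. P-values were adjusted by Benjamini-Hochberg over all genes and called under 0.05. They set each difference against the spread between the samples within a group. The fit of all arrays took the samples as independent, and whether same-numbered tissues share an animal is not given in the sources used here. The scripts were tested on simulated data. A probe not well above background on any array of a group gave only a bound, "at least N-fold": the bright group's mean against, per dim array, the higher of the probe's own signal and the lowest signal among probes well above background. The number of arrays limits the precision.

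All 9 members are named, and of each gene list and tissue at most 4 called genes without overlap and with the largest change (any gene for lists of up to 10), with the 5 genes most like Cd79a and Jchain. Irf4 and Sdc1 are also given for the liver, where their ages overlapped. The members and lists were chosen with earlier results of these data known. Alternatives were quantile normalization, normexp, median and spike-in scaling, other filters, the methods' t-test, a replicate block and leaving out each mouse. Same-numbered samples of the 2 ages in a tissue are separate animals, and over 11 pairs the deviations correlated at -0.166 to 0.181, with 1 pair over 0.1, so the numbers were not taken to pair the samples.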

Additional observations from a re-analysis of the deposited data

Results flagged for a closer look

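The age changes of 2 members differed between the 4 tissues by the F test over all 24 arrays. For Cd79b the adjusted p was 0.0274, with log2 changes of 1.96 in liver, 0.10 in lung, 2.85 in kidney and 3.48 in WAT. For Pou2af1 it was 0.0204, with changes of 2.15, 1.34, 5.17 and 4.53 in the same order. These are 2 of 9 members, against 37.5% of all genes. Both calls were lost without 10W replicate 1 (adjusted p = 0.111 for Cd79b and 0.093 for Pou2af1) and without 10W replicate 2 (0.139 and 0.116). Each tissue was on its own slide, so tissue and slide cannot be told apart.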

How the results depend on the processing

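No alternative called a member lower. The count of members called higher was 4 in liver, 0 in lung, 8 in kidney and 7 in WAT. Leaving out each mouse gave 1 to 6, 0 to 5, 8 to 8 and 2 to 7 in the same order. With the replicate block, which only shares a number between separate animals, 1 was called in liver and 3 in WAT. With the methods' t-test after Benjamini-Hochberg adjustment 1 was called in liver, 0 in WAT and 0 in lung, and at an unadjusted p under 0.05 it gave 3 in liver, 0 in lung, 8 in kidney and 7 in WAT. Over all genes that unadjusted threshold gave 3600 of 27905 higher in liver and 2309 of 30327 in lung. In kidney it gave 6432 of 31505 and in WAT 2646 of 30063. With all 24 arrays in 1 fit 1 was called in lung, and with probes well above background on all 6 arrays 5 were called in kidney, where Ms4a1, Pou2af1 and Fcrla were then not tested. Members whose change differed between tissues numbered 2, against 1 with spike-in scaling, while normexp added Jchain to these 2 (F test adjusted p = 0.044). In alternatives chosen after seeing the data they numbered 6 without 90W replicate 2 of liver and lung and 4 without 10W replicate 1 of WAT. For these alternatives to the F test the share of all genes called is not given, so the counts have no background. Leaving out each mouse and these libraries gave 0 to 6.

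The sign turned for uncalled members. Liver Cd79a was -0.02 with normexp and -0.45 to 1.02 without 1 mouse. Lung Cd79a was -0.03 with spike-in scaling, and without 1 mouse lung Cd79a was -0.72 to 1.36, Cd79b -0.45 to 1.03, Ms4a1 -0.57 to 1.45 and Fcrla -0.54 to 1.60. Kidney Xbp1 was 0.04 with normexp, 0.46 with quantile normalization, 0.34 with spike-in scaling and -0.14 to 0.04 without 1 mouse. The cause was not tested. Kidney Cd79a and Derl3 were not called with all arrays in 1 fit (adjusted p = 0.284 and 0.223). Spike-in scaling moved the median of all genes by 0.21 in liver and 0.37 in kidney, and median centring moved it by -0.11 in kidney.

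Over all genes, those called higher and lower numbered 2928 and 4749 in liver, 825 and 875 in lung, 6483 and 13410 in kidney and 605 and 174 in WAT. With spike-in scaling they were 2996 and 776, 597 and 526, 9429 and 5032, and 538 and 115. With the replicate block they were 1068 and 630, 1 and 0, 6339 and 12782, and 323 and 41, and with the methods' t-test 1321 and 1785, 99 and 132, 5764 and 12310, and 1 and 0. With all arrays in 1 fit they were 3632 and 7343, 531 and 225, 3624 and 8406, and 2955 and 2629. Without a filter 12841 were lower in liver, 304 higher and 136 lower in lung, and 76 lower in WAT. With probes well above background on all arrays 301 were higher and 93 lower in WAT, and with normexp 572 were lower in lung. Without 1 mouse the higher calls ran from 1498 to 2705 in liver, 1 to 1086 in lung, 5543 to 6302 in kidney and 211 to 478 in WAT, and the lower calls from 995 to 4427, 1 to 906, 11232 to 12965 and 25 to 123. Signal limits Cd79a and Fcrla in liver, Cd79a in young WAT, and Ms4a1, Pou2af1 and Fcrla in young kidneys, where not every array was well above background.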
